A study of Mus musculus with 20 samples.

Results

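Heart muscle myosin was followed through 7 genes: the heavy chains Myh6, Myh7 and Myh7b and the light chains Myl2, Myl3, Myl4 and Myl7. They were taken by symbol from the deposited table of 25851 genes in 20 mouse hearts, and all 7 were present. The values are FPKM, the count of fragments scaled by exon length and library size, so levels of different genes can be set side by side per length. All hearts came from male mice aged 14 to 16 weeks, 5 mice in each of 4 groups. Trained labelled knockout hearts (KO_Ex) came from mice whose labels give a PGC-1α knockout in cardiomyocytes and 6 weeks of endurance training on a voluntary wheel, and sedentary labelled knockout hearts (KO_Sed) from mice with the same knockout label kept sedentary. Trained wild-type hearts (WT_Ex) and sedentary wild-type hearts (WT_Sed) came from wild-type mice, trained on a wheel or kept sedentary in the same way. PGC-1α, encoded by Ppargc1a, is a coactivator of genes for mitochondria and oxidative metabolism.

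The labels call the tissue heart and give pieces of about 15 to 20 mg, without saying from which chamber. The promoter that drives the deletion, the deleted exons and the litters are not given in the sources used here. Libraries held 14.2 to 30.4 M recovered reads and all carry 1 batch label. Ppargc1a was higher, not lower, in hearts labelled knockout. It averaged 22.6 ± 3.01 FPKM in trained labelled knockout hearts against 15.8 ± 4.86 FPKM in trained wild-type hearts, and 22.9 ± 4.41 FPKM in sedentary labelled knockout hearts against 12.3 ± 2.85 FPKM in sedentary wild-type hearts (SD, n = 5 each). The trained difference, 0.55 on the log2 scale, was 0.39 and no longer passed without the 4 libraries named next. That level is over every exon and cannot check the deletion, so these hearts are called labelled knockout throughout. In 4 trained libraries (replicates 2 and 5 of KO_Ex, 4 and 5 of WT_Ex) Myl7 was above 1000 FPKM, and the differences of the chains are given with and without them.

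Cardiac myosin is the motor of the thick filament. Its heavy chain carries the ATPase and the actin-binding head, and each heavy chain binds an essential and a regulatory light chain that stiffen and tune the lever arm. In the adult mouse ventricle the fast alpha heavy chain, encoded by Myh6, dominates, while the slower beta heavy chain, encoded by Myh7, dominates before birth and is known to return under load, in failure and when thyroid hormone is low. Myl2 and Myl3 are the regulatory and essential light chains of the ventricle, and Myl7 and Myl4 are those of the atria. Myh7b is an older relative of both heavy chains that is best known as the host of a microRNA.

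Each of the 3 heavy chain genes holds a microRNA of the same small family in an intron and on its own strand, and in mouse these microRNAs are known to act on regulators that balance the heavy chains. The mature sequences (RefSeq, GRCm38.p6) are shown because those of Myh6 and Myh7 share a seed, bases 2 to 8, given in capitals. The first lies at chr14:54949072-54949093 on the minus strand in Myh6, the second at chr14:54975710-54975731 on the minus strand in Myh7, and the third at chr2:155622893-155622913 on the plus strand in Myh7b.
mmu-miR-208a-3p: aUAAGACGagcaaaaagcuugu
mmu-miR-208b-3p: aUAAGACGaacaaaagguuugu
mmu-miR-499-5p: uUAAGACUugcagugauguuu
The microRNAs of Myh6 and Myh7 share the seed UAAGACG, and that of Myh7b has the seed UAAGACU. The libraries were poly-A selected and do not measure mature microRNAs.

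Myh6 and Myh7 lie side by side on the minus strand of chromosome 14, with Myh7 upstream, and are counted apart only where their exons differ. Of the 50-base stretches of Myh6 exons 21.9% also occur in Myh7, and 21.2% of those of Myh7 occur in Myh6. How reads from these stretches were split is not given in the sources used here, so either value is uncertain to a degree that was not measured. Myh6 held more reads than Myh7 in every library, so the uncertain part may be a larger share of the Myh7 value. The sequence upstream of each RefSeq start is shown because the 2 neighbours moved in opposite directions in trained labelled knockout hearts. In both, the capitals mark a match to M-CAT (CATTCC, read here on the opposite strand as GGAATG), the motif known to bind TEAD factors in muscle genes.
Myh7, chr14:54994627-54994876, minus strand: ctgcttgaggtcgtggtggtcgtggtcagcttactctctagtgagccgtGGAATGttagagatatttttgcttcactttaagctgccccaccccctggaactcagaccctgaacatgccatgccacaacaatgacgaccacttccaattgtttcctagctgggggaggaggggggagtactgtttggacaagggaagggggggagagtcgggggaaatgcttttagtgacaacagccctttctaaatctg
Myh6, chr14:54966642-54966857, minus strand: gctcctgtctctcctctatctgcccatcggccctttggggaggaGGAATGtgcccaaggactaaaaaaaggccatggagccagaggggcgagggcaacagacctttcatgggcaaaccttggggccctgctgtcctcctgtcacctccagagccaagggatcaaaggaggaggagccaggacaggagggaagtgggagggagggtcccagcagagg
These are RefSeq windows on GRCm38.p6, and the second ends before the annotated exon. The Myh7 start is the same in RefSeq and GENCODE, while the Myh6 start in RefSeq lies 320 bases downstream of the furthest upstream start that GENCODE gives for the gene, so the second window is within the annotated gene, between annotated exons. Searched on both strands, M-CAT occurred in 12.6% of 32851 upstream windows of 250 bases. The half-site AGGTCA, known to bind nuclear receptors, occurred in 14.0% of the windows and in neither of these. A match or its absence describes these letters only.

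Per length, the chains spanned a wide range. Averaged over the 20 hearts, Myh6 stood at 4799 FPKM and ranked 10 among all genes in the table. Myl2 averaged 2685 FPKM and Myl3 2656 FPKM, ranks 13 and 14. Myh7 averaged 153.1 FPKM and Myh7b 30.65 FPKM. The atrial chains Myl7 and Myl4 averaged 450.7 and 80.81 FPKM, but nearly all of that came from the 4 libraries named above. Recovered reads per library ran from 416921 to 927094 for Myh6 and from 8000 to 115584 for Myh7, so counting error is small against the spread between hearts for the heavy chains. For Myl7 they ran from 0 to 30988.

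**Figure D1:**
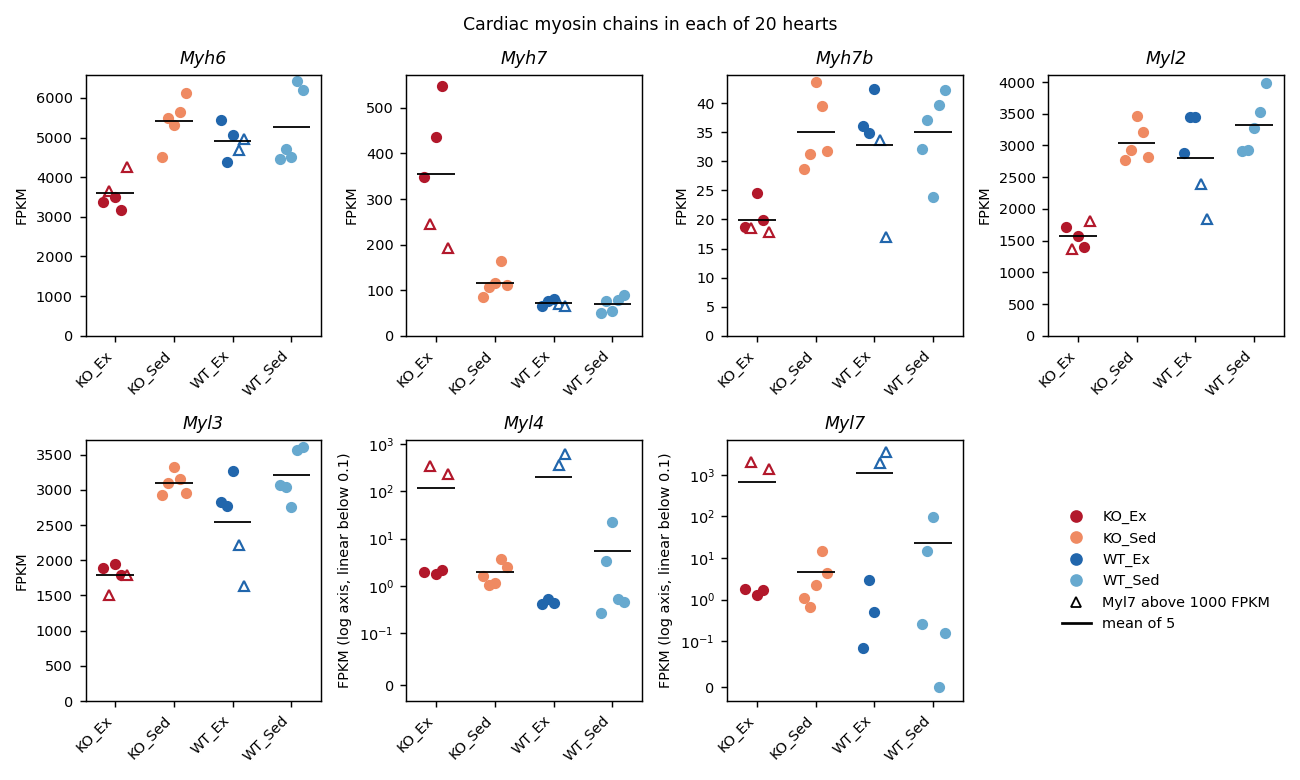
Levels of the 7 myosin chains (FPKM) in each heart, by group. Points are hearts, open triangles are the 4 libraries with Myl7 above 1000 FPKM, and black lines are means of 5. Trained labelled knockout hearts stand apart upward for Myh7 and downward for Myh6 and Myl2, while Myl4 and Myl7 (log axes, linear below 0.1) split within the trained groups.

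Myh7, the beta heavy chain, rose in labelled knockout hearts, by a log2 fold change of 2.21 in trained mice and 0.74 in sedentary mice. Its values were 349, 246, 436, 548 and 193 FPKM in trained labelled knockout hearts and 64.7, 76.3, 80.6, 69.1 and 66.3 FPKM in trained wild-type hearts. Every trained labelled knockout heart was above every heart of the other 3 groups, and the lowest in that group were the ones with atrial transcripts. The trained genotype difference was 2.21 ± 0.24 (log2 scale, SE; limma adjusted p = 1e-06), and 2.56 without the 4 libraries.

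In sedentary mice Myh7 stood at 84.2, 107, 116, 165 and 112 FPKM in labelled knockout hearts and at 48.9, 76.4, 54.2, 79.4 and 89.7 FPKM in wild-type hearts. These groups overlapped, since the lowest labelled knockout heart was below the highest wild-type heart. The difference was 0.74 ± 0.24 (limma adjusted p = 0.0432) and lay close to the threshold of 0.05. Without the 4 libraries it was 0.74 ± 0.19 (limma adjusted p = 0.0165). It passed in 22 of 34 alternative fits, with values from 0.57 to 0.88. It was lost with no filter (0.74), with atrial markers as a covariate (0.81) and with the clock gene Arntl as a covariate (0.57, limma adjusted p = 0.337). The atrial markers summed to 284 to 915 FPKM in sedentary labelled knockout and 48.1 to 151 FPKM in sedentary wild-type hearts. These ranges did not overlap, so the fit with that covariate cannot separate genotype from the markers here. Arntl averaged 0.612 ± 1.06 FPKM in sedentary labelled knockout and 2.56 ± 1.57 FPKM in sedentary wild-type hearts (SD, n = 5 each), and its part in the Myh7 difference was not tested further. The call was also lost when replicate 1, 2 or 3 of WT_Sed, replicate 2, 3, 4 or 5 of KO_Sed, replicate 4 of WT_Ex or replicate 1 of KO_Ex was left out.

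Training raised Myh7 in labelled knockout hearts, by 1.53 ± 0.24 on the log2 scale (limma adjusted p = 9.9e-05; 1.93 without the 4 libraries). In wild-type hearts the training difference was 0.07, with a 95% interval of -0.43 to 0.56 (limma adjusted p = 0.874). The training difference itself differed between genotypes. The interaction, labelled knockout minus wild-type, was 1.47 ± 0.33 (limma adjusted p = 0.0152), ran from 1.28 to 1.82 over 33 alternative fits and passed in all of them.

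Myh6, the alpha heavy chain, fell in trained labelled knockout hearts. It stood at 3376, 3655, 3510, 3165 and 4261 FPKM there, against 5433, 4393, 5064, 4695 and 4971 FPKM in trained wild-type hearts. The groups did not overlap. The genotype difference in trained mice was -0.45 ± 0.12 (log2, SE; limma adjusted p = 0.00703), and the training difference in labelled knockout mice was -0.59 ± 0.12 (limma adjusted p = 0.00098). Without the 4 libraries these were -0.56 and -0.69. Sedentary hearts had 4501, 5493, 5325, 5649 and 6137 FPKM in the labelled knockout group and 4472, 4723, 4520, 6428 and 6206 FPKM in the wild-type group. These overlapped throughout, and the sedentary genotype difference was 0.05 with a 95% interval of -0.20 to 0.30 (limma adjusted p = 0.8). The wild-type training difference was -0.09 (-0.34 to 0.16).

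The ratio of Myh7 to Myh6 needs no scaling between libraries and separated 3 of the 4 pairs of groups. It averaged 10.3% ± 5.0 in trained labelled knockout hearts, 2.15% ± 0.451 in sedentary labelled knockout hearts, 1.47% ± 0.213 in trained wild-type hearts and 1.32% ± 0.210 in sedentary wild-type hearts (SD, n = 5 each). The lowest trained labelled knockout heart, at 4.53%, was above the highest sedentary labelled knockout heart, at 2.92%, and the lowest of those, at 1.82%, was above the highest wild-type heart, at 1.74%. The genotype difference in the log2 ratio was 2.67 in trained and 0.70 in sedentary mice, and the training difference in labelled knockout mice was 2.13. Each had an exact two-sided permutation p of 0.00794, the smallest that 5 hearts against 5 allow, and an adjusted p of 0.0106 over the 4 comparisons. The wild-type training difference was 0.15 (exact permutation p = 0.31, adjusted 0.31), and those groups overlapped.

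Without the 4 libraries with atrial transcripts the ratio difference was 3.13 between trained genotypes, where 3 hearts against 3 allow no exact permutation p below 0.1, and 2.63 for training in labelled knockout mice (exact permutation p = 0.0179, the smallest possible; adjusted 0.0357). The training difference in the log2 ratio was larger in labelled knockout than in wild-type mice by 1.98, or 2.44 without those libraries, a difference that was not tested. Myh6 and Myh7 together came to 3948 ± 301.2 FPKM in trained labelled knockout hearts and 4982 ± 389.3 FPKM in trained wild-type hearts, and to 5538 ± 612.8 FPKM in sedentary labelled knockout hearts and 5340 ± 978.1 FPKM in sedentary wild-type hearts (SD, n = 5 each). On the deposited scaling the summed level was lowest in the group where Myh7 was highest. With each library scaled to the same sum, Myh6 differed by -0.16 between trained genotypes in place of -0.45, and the summed level was not recomputed. Myh6 remained the main heavy chain transcript in every heart.

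**Figure D2:**
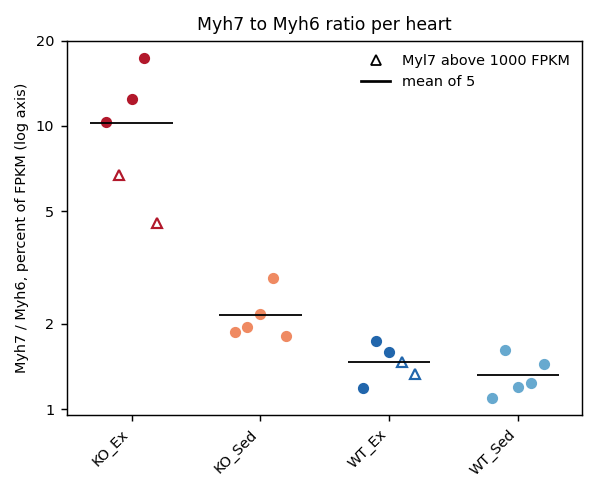
Myh7 level as a percentage of the Myh6 level in each heart (log axis), by group. Points are hearts, open triangles are libraries with Myl7 above 1000 FPKM, and lines are means. All 5 trained labelled knockout hearts lie between 4.53 and 17.3%, above the other 15.

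Myh7b fell with training in labelled knockout hearts. It stood at 18.6, 18.4, 24.5, 19.9 and 17.8 FPKM in trained and at 28.7, 31.3, 43.6, 39.5 and 31.8 FPKM in sedentary labelled knockout hearts, without overlap. The training difference was -0.79 ± 0.20 (limma adjusted p = 0.00512), and -0.72 without the 4 libraries. Trained wild-type hearts had 36.1, 34.9, 42.5, 33.7 and 17.0 FPKM, so that replicate 5, a library with atrial transcripts, was below all trained labelled knockout hearts. The trained genotype difference was -0.66 ± 0.20 (limma adjusted p = 0.0167), and -0.84 without the 4 libraries. Sedentary wild-type hearts spanned 23.8 to 42.3 FPKM and overlapped the sedentary labelled knockout hearts (difference 0.01, 95% interval -0.40 to 0.42). The Mir499 locus that it hosts was not analysed here.

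The ventricular light chains moved with Myh6 and not with Myh7. Myl2, the regulatory light chain whose phosphorylation tunes contraction, had 1716, 1367, 1566, 1406 and 1816 FPKM in trained labelled knockout hearts, against 2876, 3455, 3449, 2390 and 1846 FPKM in trained wild-type hearts. The groups did not overlap, although replicate 5 of the wild-type group, with atrial transcripts, came close to it. The trained genotype difference was -0.80 ± 0.15 (limma adjusted p = 0.00041), and -1.06 without the 4 libraries. In sedentary labelled knockout hearts Myl2 was 2768, 2922, 3469, 3211 and 2824 FPKM, and the training difference there was -0.95 ± 0.15 (log2, SE; limma adjusted p = 0.00011), and -0.96 without the 4 libraries. Sedentary wild-type hearts had 2913 to 3987 FPKM and overlapped the sedentary labelled knockout hearts (-0.13, 95% interval -0.44 to 0.19).

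Myl3, the essential light chain that clasps the lever arm, followed the same order. It stood at 1888, 1511, 1949, 1794 and 1795 FPKM in trained and at 2932, 3103, 3320, 3150 and 2960 FPKM in sedentary labelled knockout hearts, without overlap. The training difference in labelled knockout mice was -0.79 ± 0.14 (limma adjusted p = 0.00033), and -0.72 without the 4 libraries. Trained wild-type hearts had 2820, 2764, 3267, 2213 and 1632 FPKM, with the lowest value again in replicate 5, inside the range of the trained labelled knockout hearts. The trained genotype difference was -0.47 ± 0.14 (limma adjusted p = 0.0163) and -0.65 without the 4 libraries. Sedentary genotypes overlapped, with 2754 to 3605 FPKM in wild-type hearts and a difference of -0.05 (95% interval -0.34 to 0.25). In wild-type mice the training difference was -0.37 (limma adjusted p = 0.11) and was -0.12 (-0.33 to 0.10) without the 4 libraries.

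Set against all genes, the members passed the limma threshold as follows. In sedentary mice the genotype difference passed for 1 of 7 members, Myh7, where 13.3% of all 13723 genes tested passed (13.8% without the 4 libraries). In trained mice 5 of 7 passed, with Myh7 higher and Myh6, Myh7b, Myl2 and Myl3 lower, where 27.9% of all genes passed (25.8%). Training in wild-type mice passed for 0 of 7, where 5.47% passed (0.293%), and at an unadjusted p under 0.05 only Myl3 did; limma voom on recovered reads also called 0. Training in labelled knockout mice passed for the same 5 as the trained genotype difference, where 28.4% passed (28.8%); the 2 comparisons share the trained labelled knockout hearts. The interaction passed for 1, where 7.32% passed (9.39%). Without the 4 libraries it passed for 4 members, with Myh7 at 1.82, Myh7b at -0.85, Myl2 at -0.93 and Myl3 at -0.60.

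The direction of these calls did not depend on scaling, but 3 of the calls did. The deposited values behave as scaled by median ratios. Scaling each library to the same sum (TPM) instead moved the median of all genes by 0.26 between trained genotypes, 0.23 for training in labelled knockout mice, 0.17 in the interaction, 0.08 between sedentary genotypes and 0.06 for training in wild-type mice (log2). On that scale the trained genotype difference passed for Myh7 and Myl2 and no longer for Myh6 (-0.16), Myh7b (-0.38) and Myl3 (-0.18), while the 5 training calls in labelled knockout mice held in all 34 alternative fits. Differences of that size between trained genotypes are therefore relative to the scaling.

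**Figure D3:**
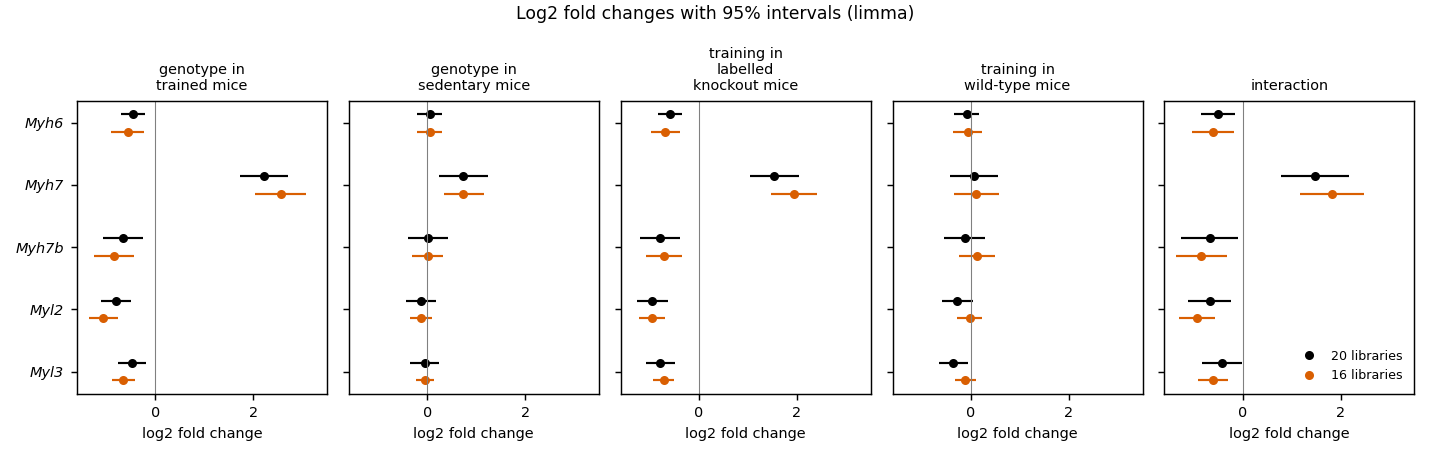
Log2 fold changes of the heavy chains and ventricular light chains in 5 comparisons, with 95% intervals from limma, for all 20 libraries (black) and for 16 without those with atrial transcripts (orange). Myh7 lies right of 0 in every panel except training in wild-type mice, where its interval spans 0, and the other 4 chains lie left of 0 in trained genotypes and in training of labelled knockout mice.

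The atrial chains split the hearts by library and not by group. Myl7, the regulatory chain of atrial muscle, had 1.76, 2055, 1.27, 1.66 and 1355 FPKM in trained labelled knockout hearts and 1.09, 0.674, 2.19, 14.8 and 4.41 FPKM in sedentary labelled knockout hearts. It had 0.0846, 2.88, 0.508, 1975 and 3484 FPKM in trained wild-type hearts and 0.259, 14.7, 97.1, 0 and 0.153 FPKM in sedentary wild-type hearts. All groups overlapped, and 4 trained libraries stood far above the rest. Myl4, the essential chain of atrial and fetal muscle, had 1.96, 344, 1.81, 2.17 and 239 FPKM in trained labelled knockout hearts and 1.61, 1.05, 1.16, 3.66 and 2.51 FPKM in sedentary labelled knockout hearts. It had 0.409, 0.520, 0.427, 369 and 620 FPKM in trained wild-type hearts and 0.264, 3.40, 22.5, 0.519 and 0.456 FPKM in sedentary wild-type hearts. The same 4 libraries were highest for both chains. No comparison passed for either gene, and the standard errors of the trained and sedentary genotype differences, 1.9 for Myl4 and 2.58 for Myl7 on the log2 scale, leave intervals many fold wide.

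Other atrial genes marked the same libraries. Sln, which encodes sarcolipin, an inhibitor of the calcium pump in atrial muscle, was at 285.9 and 204.5 FPKM in replicates 2 and 5 of KO_Ex and at 342.2 and 590.2 FPKM in replicates 4 and 5 of WT_Ex, and at most 21.61 FPKM in the other 16 libraries. Summed over 8 atrial markers other than myosins, the level in trained hearts was 1500 to 3420 FPKM in the labelled knockout group and 35.4 to 5700 FPKM in the wild-type group. In sedentary hearts it was 284 to 915 FPKM in the labelled knockout group and 48.1 to 151 FPKM in the wild-type group. That sum is carried in large part by Nppa, the atrial natriuretic peptide, which stressed ventricles also make. Nppa was at 1472 FPKM or more in every trained labelled knockout heart. In the 3 trained wild-type hearts without atrial transcripts, Sln was listed at 0. In bulk tissue a larger share of atrial cells and more RNA per cell cannot be told apart.

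**Figure D4:**
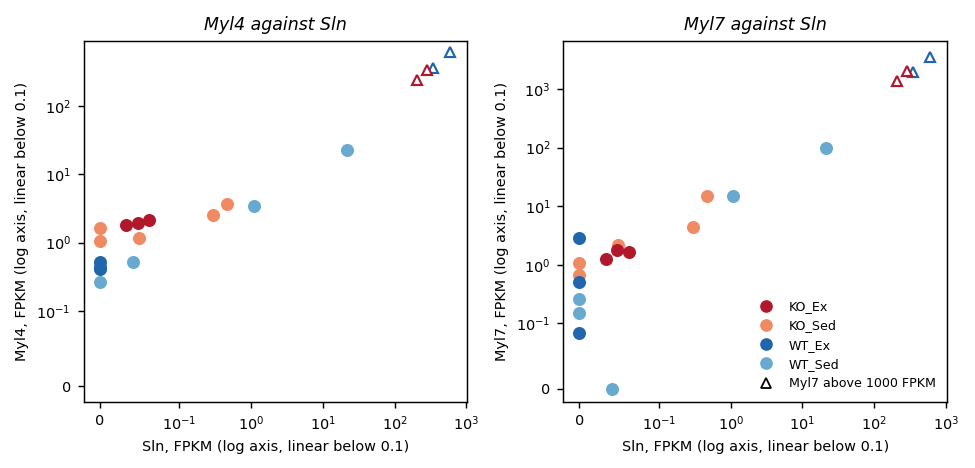
Myl4 and Myl7 against Sln in each heart (FPKM, log axes, linear below 0.1). Open triangles are the 4 trained libraries with Myl7 above 1000 FPKM, which lie together at the upper right, with sedentary wild-type replicate 3 between them and the rest.

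Below those levels the 2 genotypes were ordered for Myl4. Among the 6 labelled knockout hearts with Sln under 0.1 FPKM, Myl4 ran from 1.05 to 2.17 FPKM with a median of 1.71. Among the 6 wild-type hearts with Sln under 0.1 FPKM it ran from 0.264 to 0.520 FPKM with a median of 0.442. The ranges did not overlap, but the libraries were picked after their values were seen, so no test was made. Myl7 in the same hearts ran from 0.674 to 2.19 FPKM in the labelled knockout and from 0 to 2.88 FPKM in the wild-type group, which overlapped. Mybphl, one of the atrial markers, ran from 0.801 to 6.58 FPKM in the labelled knockout and from 0 to 0.459 FPKM in the wild-type group of the same hearts, also without overlap. Whether such low Myl4 comes from ventricular or atrial cells was not tested.

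Several RNAs are annotated within or across Myh7, and they moved opposite to it where trained labelled knockout hearts were compared. Mhrt, a long noncoding RNA on the plus strand at 54968678 to 54974349 of chromosome 14 (GRCm38), runs antisense to the end of Myh7 and in mouse is known to hold back Brg1, a chromatin remodeller that acts on both heavy chain genes. It stood at 29.4 to 65.3 FPKM in trained labelled knockout hearts with a mean of 42.6 ± 15.3, and at 81.6 ± 21.4 FPKM in trained wild-type hearts (SD, n = 5 each). It averaged 83.1 ± 18.4 FPKM in sedentary labelled knockout and 81.7 ± 24.5 FPKM in sedentary wild-type hearts. The trained groups overlapped at their edges. The trained genotype difference was -0.96 ± 0.25 (limma adjusted p = 0.00646), the training difference in labelled knockout mice -0.99 ± 0.25 (limma adjusted p = 0.00515), and the sedentary genotype difference 0.05 ± 0.25 (limma adjusted p = 0.915). Without the 4 libraries the trained genotype difference was -1.13 and the training difference -1.33.

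The row for Mir208b, the 77-base hairpin inside Myh7, did not follow its host. These values were looked at after those of Myh7 were seen, as were those of Mir208a, Gm31251 and Gm17428. Mir208b averaged 291.9 ± 112.6 FPKM in trained labelled knockout hearts and 777.5 ± 211.9 FPKM in trained wild-type hearts, and 709.5 ± 174.2 FPKM in sedentary labelled knockout and 734.9 ± 271.0 FPKM in sedentary wild-type hearts (SD, n = 5 each). The trained genotypes did not overlap. Its trained genotype difference was -1.45 ± 0.27 (limma adjusted p = 0.000396), where Myh7 had 2.21. The interaction was -1.44 ± 0.38 (limma adjusted p = 0.0298). Across the 20 hearts its log2 level had a Pearson r of 0.97 with Mhrt and of -0.76 with Myh7, given as a description. The row held 329 to 2014 reads per library, so depth does not limit it. The 2 plus-strand rows inside Myh7 fell as well, with trained genotype differences of -0.73 ± 0.16 for Gm31251 and -0.81 ± 0.27 for Gm17428 (limma adjusted p = 0.00159 and 0.0294). Mir208a, the hairpin inside Myh6, fell too, with a difference of -1.11 ± 0.30 (limma adjusted p = 0.0095) on 19 to 73 reads per library. Without the 4 libraries all of these trained genotype differences still passed, at -1.69 for Mir208b, -0.93 for Gm31251, -1.01 for Gm17428 and -1.25 for Mir208a. Between sedentary genotypes none of these rows passed (limma adjusted p from 0.648 to 0.982). The differences there were -0.01 for Mir208b, -0.11 for Gm31251, 0.20 for Gm17428 and 0.01 for Mir208a. The library kit keeps strand, but whether the counting used it is not given in the sources used here, so reads from either strand over these short rows cannot be told apart.

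**Figure D5:**
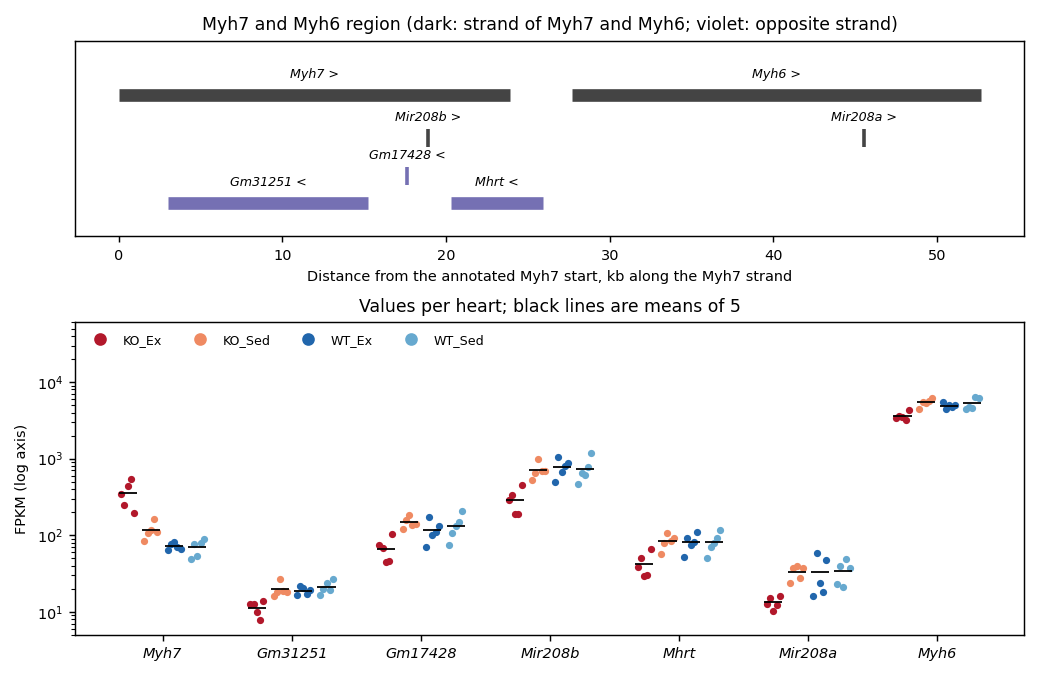
Above, the Myh7 and Myh6 region drawn to scale in kb from the annotated Myh7 start, with rows on the Myh7 strand in dark grey and on the opposite strand in violet. Below, the level of each row in each heart (FPKM, log axis) by group, with means of 5 as lines. By its mean, Myh7 is highest in trained labelled knockout hearts, where the means of the other 6 rows are lowest.

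Other sarcomeric heavy chains stayed near absent, while light chains of other muscle types rose with genotype. Of 11 further heavy chains on the list, 10 were in the table and 4 had a mean of at least 0.5 FPKM. The embryonic, perinatal and fast skeletal chains Myh3, Myh8, Myh1 and Myh2 reached at most 0.146 FPKM in any library. Of the 4 tested, 1 was higher and 1 lower between trained genotypes and 2 were higher and 1 lower with training in labelled knockout mice, while between sedentary genotypes 0 passed in limma (0 at an unadjusted p under 0.05, 0 by voom) and with training in wild-type mice 0 (1 and 0). Over all genes tested, 27.9% passed between trained genotypes and 28.4% with training in labelled knockout mice. Myh10, a nonmuscle heavy chain made by many cell types, averaged 8.29 ± 1.29 FPKM in trained and 4.38 ± 0.745 FPKM in sedentary labelled knockout hearts. Its training difference there was 0.85 (limma adjusted p = 7.28e-05). Myh9, another nonmuscle chain, rose by 0.61 in the same comparison (limma adjusted p = 0.00147). Myh14 is not given a direction between trained genotypes, since its -0.27 became 0.01 on the TPM scale.

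Of 7 further light chains tested, 3 were higher in labelled knockout hearts in sedentary and in trained mice, and none lower. Over all genes tested, 6.96% were higher between sedentary and 12.5% between trained genotypes. Myl9, the regulatory chain of smooth muscle, averaged 179.7 ± 70.7 FPKM in trained labelled knockout against 73.7 ± 57.3 FPKM in trained wild-type hearts, and 87.4 ± 3.96 FPKM in sedentary labelled knockout against 26.2 ± 8.19 FPKM in sedentary wild-type hearts (SD, n = 5 each). Its genotype difference was 1.63 in trained and 1.80 in sedentary mice (limma adjusted p = 0.0102 and 0.0124). Myl1, the fast skeletal essential chain, averaged 64.7 ± 14.1 FPKM in trained labelled knockout and 34.8 ± 27.4 FPKM in trained wild-type hearts, and 35.7 ± 8.67 FPKM in sedentary labelled knockout and 13.1 ± 1.87 FPKM in sedentary wild-type hearts. Mylpf, the fast skeletal regulatory chain, rose by 0.76 in trained and 1.16 in sedentary mice (limma adjusted p = 0.0118 and 0.00154). With training in labelled knockout mice Mylpf was the single call among these 7 further light chains, at -0.73 (limma adjusted p = 0.0155). Over all genes 28.4% passed in that comparison. Without the 4 libraries 0 of the 7 were called lower in that comparison and 1 was called higher. The smooth muscle and pericyte markers summed to 600 to 717 FPKM in trained and 511 to 566 FPKM in sedentary labelled knockout hearts, against 296 to 363 FPKM in trained and 273 to 330 FPKM in sedentary wild-type hearts, mostly through the smooth muscle actin gene Acta2. Of the 7 such markers tested, 1 was higher and 1 lower in each genotype comparison: Acta2 differed by 1.81 in trained and 2.32 in sedentary mice, while the pericyte markers Kcnj8 in trained mice and Rgs5 in sedentary mice differed by -0.53 and -0.48 (limma adjusted p of 1.51e-05, 9.22e-06, 0.00158 and 0.0361 in that order). The 8 skeletal muscle markers summed to 1480 to 3510 FPKM in trained and 2310 to 3340 FPKM in sedentary labelled knockout hearts. In wild-type hearts they summed to 472 to 869 FPKM in trained and 528 to 1200 FPKM in sedentary mice. Acta1, the skeletal actin that stressed cardiomyocytes also make, was most of the labelled knockout sums. In wild-type hearts Ckm averaged more than Acta1, at 450.9 against 215.8 FPKM in trained and 513.2 against 414.8 FPKM in sedentary mice. Between sedentary genotypes 4 of the 5 skeletal markers tested were higher and 0 lower. Between trained genotypes 2 were higher and 1 lower, Ckm at -0.70. Of the sedentary calls, Tnnt3 averaged 0.937 FPKM in labelled knockout and 0.329 FPKM in wild-type hearts, and 0.425 FPKM in trained wild-type hearts. It met the filter of a mean of 0.5 FPKM only through labelled knockout hearts, so its call is description only. Actn3, Tnnc2 and Cacng1 were left out by that filter. Tnnc2 was listed at 0 in every trained labelled knockout heart. The part of these cells in the light chain result was not tested.

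Of 12 enzymes that add or remove the light chain phosphate, 4 were higher and none lower between sedentary genotypes, where 13.3% of all genes passed. The median over the 12 was -0.03, against -0.01 over all genes. Dapk3, a kinase of light chains, rose by 0.43 (limma adjusted p = 0.00893), the cardiac light chain kinase Mylk3 by 0.46 (limma adjusted p = 0.0293), and Mylk4, a muscle member of the same kinase family, by 0.73 (limma adjusted p = 0.0437). Ppp1r12c, a targeting subunit of the light chain phosphatase, rose by 0.39 (limma adjusted p = 0.0397), and was not called without the 4 libraries (limma adjusted p = 0.0602). Between trained genotypes 0 of 12 passed in limma, where 27.9% of all genes passed, with 1 at an unadjusted p under 0.05 and 0 by voom. Training in labelled knockout mice left 1 higher and 1 lower, where 28.4% of all genes passed. With training in labelled knockout mice Mylk4 fell to 30.95 ± 6.73 FPKM in trained hearts, against 56.5 ± 17.1 FPKM in sedentary hearts (log2 fold change -0.82, limma adjusted p = 0.0113), and Mylk, the smooth muscle kinase, rose by 0.64 (limma adjusted p = 0.017), or 0.26 without the 4 libraries, where it no longer passed. With training in wild-type mice 1 of 12 passed, Ppp1r12c at 0.47 (limma adjusted p = 0.036), and none without the 4 libraries. Over all genes 5.47% passed there, and 0.293% without the 4 libraries.

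Genes that bind, fold, assemble or clear myosin numbered 14 tested. Between trained genotypes 1 was higher and 2 lower, a smaller share than the 27.9% of all genes that passed. Mybpc2, the fast skeletal form of myosin-binding protein C, rose by 1.85 (limma adjusted p = 0.000161), Unc45b, the chaperone that folds the myosin head, fell by 0.47 (limma adjusted p = 0.000235), and Trim54, a sarcomeric ubiquitin ligase, fell by 0.32 (limma adjusted p = 0.0332), or 0.35 without the 4 libraries, where it no longer passed. On the TPM scale Unc45b had -0.18 and Trim54 -0.03. In sedentary mice Myom2, an M-band protein that ties thick filaments together, rose by 0.63 (limma adjusted p = 0.0205). It was the single call, where 13.3% of all genes passed. With training in labelled knockout mice 1 was higher and 2 lower, with Trim54 at -0.49, where 28.4% of all genes passed. With training 2 members passed in both genotypes, where 5.47% of all genes passed in wild-type mice. Trim63, a ligase for which myosin heavy chain is a known target, had -0.56 in labelled knockout and -0.56 in wild-type mice, and Hsp90aa1, a chaperone that works with Unc45b, had 0.81 in labelled knockout and 0.96 in wild-type mice (limma adjusted p of 0.00212, 0.0191, 0.0121 and 0.0266 in that order). On the TPM scale Trim63 had -0.29 in labelled knockout and -0.49 in wild-type mice. Without the 4 libraries the wild-type values of both no longer passed, at -0.43 for Trim63 and 0.71 for Hsp90aa1.

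Thyroid hormone is the classical switch between the heavy chains, since its receptors act on Myh6 and Myh7 in opposite directions. Of 12 genes of its pathway tested, 3 were lower and none higher between sedentary genotypes, where 6.32% of all genes were lower and 6.96% higher. Thra, the main cardiac receptor, averaged 16.0 ± 2.22 FPKM in sedentary labelled knockout hearts and 24.6 ± 3.67 FPKM in sedentary wild-type hearts, a difference of -0.60 (limma adjusted p = 0.000475). Thrb, the other receptor, differed by -0.46 (limma adjusted p = 0.0086), and Slc16a10, a transporter of the hormone, by -0.37 (limma adjusted p = 0.0199). Between trained genotypes 1 was higher and 4 lower, where 12.5% of all genes were higher and 15.4% lower. Dio2, the enzyme that makes the active hormone from its precursor, averaged 1.80 ± 0.829 FPKM in trained labelled knockout and 0.323 ± 0.222 FPKM in trained wild-type hearts (log2 fold change 1.44, limma adjusted p = 0.000108). Its interaction was 1.25 (limma adjusted p = 0.0299). Dio2 averaged 0.293 FPKM in sedentary labelled knockout and 0.188 FPKM in sedentary wild-type hearts. It met the filter of a mean of 0.5 FPKM only through trained labelled knockout hearts. Its calls, and its place in the counts here, are therefore description only. Dio3, also on the list, averaged 0.236 FPKM in trained labelled knockout and 0.0584 FPKM in trained wild-type hearts and was left out by that filter. Thra differed by -0.36 between trained genotypes, or -0.08 on the TPM scale, where the other 3 lower members stayed below 0. Training in labelled knockout mice left 2 higher and 2 lower, where 12.1% of all genes were higher and 16.3% lower. Among them were Dio2 at 1.48 and Rxrg, a receptor partner, at -0.62. Training in wild-type mice left 1 higher and 1 lower, where 5.47% of all genes passed, and neither passed without the 4 libraries. Of 9 other cardiac genes known to respond to the hormone, 0 passed in limma between sedentary genotypes (3 at an unadjusted p under 0.05, 0 by voom), while 2 were lower between trained genotypes and 6 were lower with training in labelled knockout mice (3 and 5 without the 4 libraries). Over all genes tested, 16.3% were lower with that training. On the TPM scale 2 of the 6, Adrb1 and Me1, came to -0.01. The other 4 were Pln, the brake of the calcium pump, at -0.76, Slc2a4, the insulin-dependent glucose transporter, at -0.68, Hcn2, a pacemaker channel, at -0.90 and Ucp3, a mitochondrial carrier, at -0.96 (limma adjusted p of 5.56e-05, 7.03e-05, 0.000259 and 0.00674 in that order).

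Of 14 regulators of the heavy chain genes tested, such as TEAD, MEF2 and GATA factors and Sox6, 0 passed in limma between sedentary genotypes, with 3 at an unadjusted p under 0.05 and 0 by voom, and 0 with training in wild-type mice, with 5 and 0. Hopx, a cofactor that restrains serum response factor, averaged 69.6 ± 18.2 FPKM in trained labelled knockout against 104.8 ± 14.6 FPKM in trained wild-type hearts, and 147.1 ± 12.2 FPKM in sedentary labelled knockout against 124.0 ± 8.80 FPKM in sedentary wild-type hearts (SD, n = 5 each). Its training difference in labelled knockout mice was -1.11 ± 0.14 (limma adjusted p = 1.45e-05) and its interaction -0.86 ± 0.19 (limma adjusted p = 0.014). Srf, the serum response factor gene, was higher between trained genotypes by 0.31 (limma adjusted p = 0.0337), and no longer passed without the 4 libraries (0.38). With Hopx and Mhrt lower, the count between trained genotypes was 1 higher and 2 lower of 14, where 27.9% of all genes passed in either direction.

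Markers of several cell types differed between the groups too. Over all genes tested, 12.5% were higher and 15.4% lower between trained genotypes, and 6.96% higher and 6.32% lower between sedentary genotypes. With training in labelled knockout mice 12.1% of all genes were higher and 16.3% lower. Of 10 cardiomyocyte markers other than myosins, 4 were lower between trained genotypes and 6 with training in labelled knockout mice (3 and 4 without the 4 libraries), and none was higher. Between sedentary genotypes 2 were lower, Tnni3 and the calcium release channel Ryr2, both at -0.60 (limma adjusted p = 0.00281 and 0.0361). Without the 4 libraries Ryr2 no longer passed (limma adjusted p = 0.0516), and Tnnc1 was called higher, at 0.30 (limma adjusted p = 0.0281). On the TPM scale Csrp3 reversed to 0.01 and Tnnt2 came to 0.00 between trained genotypes, and Csrp3 came to -0.04 and Actc1 to -0.09 with training in labelled knockout mice. Tnni3, the cardiac inhibitory troponin, had 739.1 ± 132.2 FPKM in trained labelled knockout and 2176 ± 295.2 FPKM in trained wild-type hearts (log2 fold change -1.57, limma adjusted p = 3.08e-08). Cardiac actin Actc1 had 6700 ± 603.2 FPKM in trained labelled knockout and 6247 ± 1068 FPKM in trained wild-type hearts, and did not pass. Summed over the 10 markers, levels were 10200 to 12000 FPKM in trained labelled knockout and 11200 to 15100 FPKM in trained wild-type hearts, and 14200 to 16200 FPKM in sedentary labelled knockout and 13200 to 15900 FPKM in sedentary wild-type hearts. Of 8 fibroblast markers 7 were higher between trained genotypes and 6 with training in labelled knockout mice, and all 8 macrophage markers were higher in both. Between sedentary genotypes 4 of 8 macrophage markers were higher and 3 of 8 endothelial markers lower, and 4 of 8 endothelial markers were lower between trained genotypes. Fibroblast markers summed to 337 to 672 FPKM in trained labelled knockout and 146 to 234 FPKM in trained wild-type hearts, and macrophage markers to 356 to 642 FPKM in trained labelled knockout and 168 to 307 FPKM in trained wild-type hearts. In sedentary hearts macrophage markers summed to 264 to 300 FPKM in the labelled knockout and 161 to 238 FPKM in the wild-type group, and endothelial markers to 155 to 181 FPKM in the labelled knockout and 196 to 247 FPKM in the wild-type group. Ventricular markers other than myosins summed to 28.6 to 48.2 FPKM in trained labelled knockout and 24.6 to 44.8 FPKM in trained wild-type hearts, against 52.4 to 61.4 FPKM in sedentary labelled knockout and 46.4 to 57.5 FPKM in sedentary wild-type hearts, so these ranges followed training in both genotypes, and in wild-type mice without the 4 libraries none of the 5 passed. In bulk tissue fewer cardiomyocytes and less RNA per cardiomyocyte cannot be told apart, and the part of the cell makeup in the lower Myh6, Myl2 and Myl3 and in the higher Myh7 was not tested.

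Among the members, the light chains of the same chamber were the closest pairs across hearts. On the log2 scale, Pearson r over 20 hearts was 0.95 for Myl2 with Myl3, 0.98 for Myl4 with Myl7, 0.80 for Myh6 with Myl2 and 0.91 for Myh7b with Myl3. Myh7 had r of -0.66 with Myh6 and of -0.74 with Myl2. Among 13716 other genes tested, those most like Myh7 were Ssc5d at 0.97 and Pi16 and Svep1 at 0.96, and those most like Myh6 were Map1lc3b at 0.96, Kars at 0.95 and Sbk1 at 0.94. For Myh7b they were Mrpl57 at 0.93, Tars2 at 0.92 and Phb2 at 0.91. Myl2 was most like Slc25a4, the heart adenine nucleotide carrier, Crip2 and Hsd17b10, all at 0.96, and Myl3 most like Mrps18a at 0.96 and Mrpl36 and Cdc34 at 0.94. Myl4 was nearest to Sln at 0.99 and to Cd207 and Hamp at 0.97, and Myl7 to Sln at 0.97 and to Cd207 and Cilp2 at 0.94. Those of the atrial chains rest in part on the 4 libraries, without which (n = 16) they were 0.87, 0.74 and 0.88 for Myl4 and 0.85, 0.72 and 0.67 for Myl7. These r values describe hearts that share groups, libraries and depth.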

How the data were processed

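The deposited FPKM values were made by the authors from poly-A selected, directional libraries. The submitters' processing notes list featureCounts 1.5.0-p3, HISAT2 2.0.5, the build mm10 and DESeq2 1.20.0 and assign no roles. Of 25851 identifiers, 25826 matched a symbol. FPKM times GENCODE M21 exon length gave whole reads, within 0.01, for 24958 genes (96.5%), including the 7 chains. Their totals gave the depth, and the sizes behind the FPKM followed median ratios (0.997 to 1.003), so no further scaling was applied.

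In limma 3.58.1 (R 4.3.3), log2(FPKM + 0.5) was fitted to the 4 groups at once (16 residual degrees of freedom) for 13723 genes with a mean of at least 0.5 FPKM (12128 left out), with a mean-variance trend. All 7 chains passed, Myl4 and Myl7 mostly through 4 libraries. Of the list genes named, Dio2 passed only through trained labelled knockout hearts and Tnnt3 only through labelled knockout hearts. Fold changes of low genes are understated by the added 0.5. Tests were two-sided, and p was adjusted by Benjamini-Hochberg in each of 5 comparisons over the genes tested. The ratio was tested by exact permutation in Python 3.11.15. Fits were tested on simulated data.

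The members, the 7 pathway and 12 marker lists and the alternatives were chosen with earlier results of these data known. Up to 4 members per list and comparison past the threshold were named in order of p, with defining markers and the 3 genes most correlated with each chain. Gm31251, Gm17428, Mir208a, Mir208b, Nppa and Ppargc1a were chosen from values already seen. The limma voom alternative on recovered reads was chosen after seeing the data as well.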

Additional observations from a re-analysis of the deposited data

Results flagged for a closer look

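The training effect on Myh7 differed between genotypes, by 1.47 on the log2 scale for labelled knockout minus wild-type mice (limma adjusted p = 0.0152). All 5 trained labelled knockout hearts were above all 5 sedentary ones.

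Among 32 sets of 5 hearts examined (the 7 chains and the Myh7 to Myh6 ratio in 4 groups), 3 held a heart set off from the other 4 by Dixon's criterion of 0.71, which chance gives in about 1 of 20 such sets. Myl7 was 14.8 FPKM in sedentary labelled knockout replicate 4, the highest of its group. Sedentary wild-type replicate 3 was set off for both atrial chains, with 97.14 FPKM for Myl7 and 22.52 FPKM for Myl4. That heart also had Sln at 21.61 FPKM, above the other 9 sedentary hearts.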

How the results depend on the processing

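Results were recomputed with other pseudocounts, filters, scalings, weights, covariates and a count-based fit, and without each library or the 4 with atrial transcripts. Of 1183 values for single chains, 1069 kept their direction and call. Another 72 changed sign with no call in either fit, while 22 lost and 19 gained the threshold. In 1 the sign changed and a call was made: Myl4 between trained genotypes was -3.61 with atrial markers as a covariate. The count of chains called between sedentary genotypes, 1, became 0 with no filter, with atrial markers as a covariate and with Arntl as a covariate. Between trained genotypes 5 became 3 with no filter and 2 with TPM scaling. In the interaction 1 became 2 with a mean of at least 2 FPKM, 4 with array weights, 4 without the 4 libraries and 2 with atrial markers as a covariate. The cause was not tested. The summed atrial markers did not overlap between sedentary genotypes, so the fit with them there cannot separate genotype from the markers. Leaving out 1 library gave 0 to 1 calls between sedentary and 3 to 5 between trained genotypes (3 without WT_Ex replicate 3), 0 to 1 for training in wild-type mice (Myl3 without WT_Ex replicate 3), 5 for training in labelled knockout mice and 1 to 4 in the interaction (2 without WT_Sed replicate 4, 3 without WT_Sed 5, KO_Sed 1 or KO_Ex 5, and 4 without WT_Ex 5). The Myh7 to Myh6 ratio between trained genotypes was 3.13 without the 4 libraries, with an adjusted p of 0.133 that 3 against 3 hearts cannot bring under the threshold. Whether replicate numbers pair the hearts was not tested. Over 30 same-numbered pairs the correlation of deviations ran from -0.28 to 0.48, with 12 above 0.1. Its median was 0.07, against -0.01 for pairs with different numbers. With the replicate number as a block the counts stayed at 1 (sedentary genotypes), 5 (trained genotypes), 0 (training in wild-type), 5 (training in labelled knockout) and 1 (interaction). Depth limits Myl4 and Myl7, at 24 and 0 reads in their lowest libraries.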
